A study of Mus musculus with 4 samples.

Results

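The chemokine genes Ccl1, Ccl17 and Ccl22 and the receptor genes Ccr4 and Ccr8 were followed across the leukocytes of B16-F10 mouse melanomas. The 5 genes were chosen by symbol, were 5 of the 32285 genes measured, and each matched 1 row. CCL17 and CCL22 are ligands of CCR4, and CCL1 is a ligand of CCR8. Both receptors are known from regulatory T cells (Tregs, the Foxp3-expressing CD4 T cells that restrain immune responses), and CCR8 in particular is known from Tregs inside tumours. CCL17 and CCL22 are made mainly by dendritic cells (DCs), CCL22 above all by mature DCs that carry antigen to T cells, and CCL1 is made by activated T cells.

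B16-F10 is a transplantable, pigmented melanoma line. Tumour-bearing mice received an antibody to CD40, a stimulatory receptor of antigen-presenting cells, or its dilution buffer into the tumour, and an antibody to the checkpoint receptor PD1 or IgG into a vein, on days 8 and 11. Tumours were taken on day 14. The groups were control (IgG), CD40 antibody, PD1 antibody and the combination of both antibodies, and each was 1 library of live CD45+ cells pooled from 6 mice. The sources used here do not give the age, sex or strain of the mice. Values given 4 at a time follow that order unless named otherwise, and "under CD40", "under PD1" and "under both" name the treated libraries. Because there was 1 library per group, no difference has a replicate check and none was tested. All intervals are 95% intervals for counting error and do not cover differences between mice or between libraries. Those of levels and ratios treat each UMI as independent and do not cover the spread between cells.

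The libraries held 8132 to 10158 barcodes and 117735875 to 164755549 unique molecular identifiers (UMIs, each 1 captured transcript). After filters 7736, 7757, 9681 and 9481 cells were kept, with medians of 11390.5, 14663, 11727 and 13141 UMIs. Between 305 and 371 barcode sequences of a library also occurred in another library. Cells were put into classes one by one from marker genes that include none of the 5 genes. Treg-gated cells numbered 330, 89, 321 and 108, and mature DC-gated cells, marked by Ccr7 and Fscn1, numbered 179, 25, 71 and 21. CD8 T-gated cells numbered 604, 1739, 1007 and 2937. In the Treg-gated cells the Treg genes not used by the gate were present in every library, among them Ctla4 at 1129 to 1359 and Ikzf2 at 1037 to 1489 CPM (the UMIs of a gene per 1000000 UMIs of the class or library). These genes were also present, at lower levels, in conventional CD4 T-gated cells, with Ctla4 at 131 to 417 and Ikzf2 at 82.2 to 373 CPM. All 7 mature DC markers had UMIs in the mature DC-gated cells of every library, but the gate itself uses these genes, so this is no separate check.

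Ccl17 and Ccl22 lie close together on mouse chromosome 8 (GRCm38). Ccl22 (ENSMUSG00000031779) spans chr8:94745590-94751699 and Ccl17 (ENSMUSG00000031780) spans chr8:94810453-94812036, both on the plus strand, with a gap of 58.8 kb that holds 1 protein-coding gene, the chemokine gene Cx3cl1. Ccl1 (ENSMUSG00000020702) spans chr11:82176657-82305690 on the minus strand, a span that covers 3 annotated transcripts. Ccr4 (ENSMUSG00000047898) lies at chr9:114490316-114504916 on the minus strand and Ccr8 (ENSMUSG00000042262) at chr9:120092114-120094906 on the plus strand. The 250 bases before the transcription start of the 3 chemokine genes are shown because their levels moved apart for CD40 against control, Ccl17 from its neighbour Ccl22 in particular. They are RefSeq sequences of GRCm38.p6, with motif matches in capitals, at chr8:94810203-94810452 (plus strand), chr8:94745434-94745683 (plus strand) and chr11:82179813-82180062 (minus strand). The RefSeq starts of Ccl1 and Ccl22 differ from the gene spans above. The Ccl1 window lies inside its span, and the Ccl22 window runs past the start of its span.
Ccl17: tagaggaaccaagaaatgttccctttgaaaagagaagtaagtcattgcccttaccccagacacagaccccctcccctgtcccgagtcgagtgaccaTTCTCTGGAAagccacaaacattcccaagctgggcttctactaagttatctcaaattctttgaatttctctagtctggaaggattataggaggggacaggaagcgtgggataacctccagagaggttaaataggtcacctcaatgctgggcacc
Ccl22: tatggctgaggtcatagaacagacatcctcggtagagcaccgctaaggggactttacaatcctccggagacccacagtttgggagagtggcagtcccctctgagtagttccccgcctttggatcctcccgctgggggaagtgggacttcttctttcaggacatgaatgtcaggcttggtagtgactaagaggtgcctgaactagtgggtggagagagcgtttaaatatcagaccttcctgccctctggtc
Ccl1: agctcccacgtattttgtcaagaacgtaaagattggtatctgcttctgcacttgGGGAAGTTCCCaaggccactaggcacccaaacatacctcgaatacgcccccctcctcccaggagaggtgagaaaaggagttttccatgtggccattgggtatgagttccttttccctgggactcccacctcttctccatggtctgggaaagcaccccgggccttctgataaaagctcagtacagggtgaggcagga
The capitals in Ccl17 match the STAT motif TTCNNNNGAA, which reads alike on both strands and starts 154 bases before the transcription start. This motif occurred in 5.85% of 32851 promoter windows of the same length. The capitals in Ccl1 cover a pair of overlapping matches to the NF-kB consensus, 1 on each strand, starting 196 and 195 bases before the start, and 7.25% of all windows held a match. Neither motif was found in the windows of Ccl22, Ccr4 and Ccr8. These matches describe letters and are not evidence of binding.

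The chemokines differed in how their UMIs were spread over the cell classes, with mature DC-gated cells a source of both Ccl17 and Ccl22. In the control library 92.9% of the 3895 Ccl1 UMIs were in CD8 T-gated cells and 73.4% of the 4839 Ccl22 UMIs were in mature DC-gated cells. Ccl17 was spread wider, with 24.3% of its 4274 UMIs in mature DC-gated cells, 26.7% in cDC2-gated cells (conventional DCs marked by Cd209a), 23.5% in mononuclear phagocyte-gated cells (monocytes and macrophages) and 20.4% in ungated cells, which met the rule of no class. Of the 2126 Ccr8 UMIs in the control library, 39.4% were in Treg-gated cells, 21.9% in CD8 T-gated cells and 22.9% in other T cells. Of the 165 Ccr4 UMIs, 43.0% were in Treg-gated cells, 23.0% in other T cells and 13.9% in conventional CD4 T-gated cells.

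**Figure D1:**
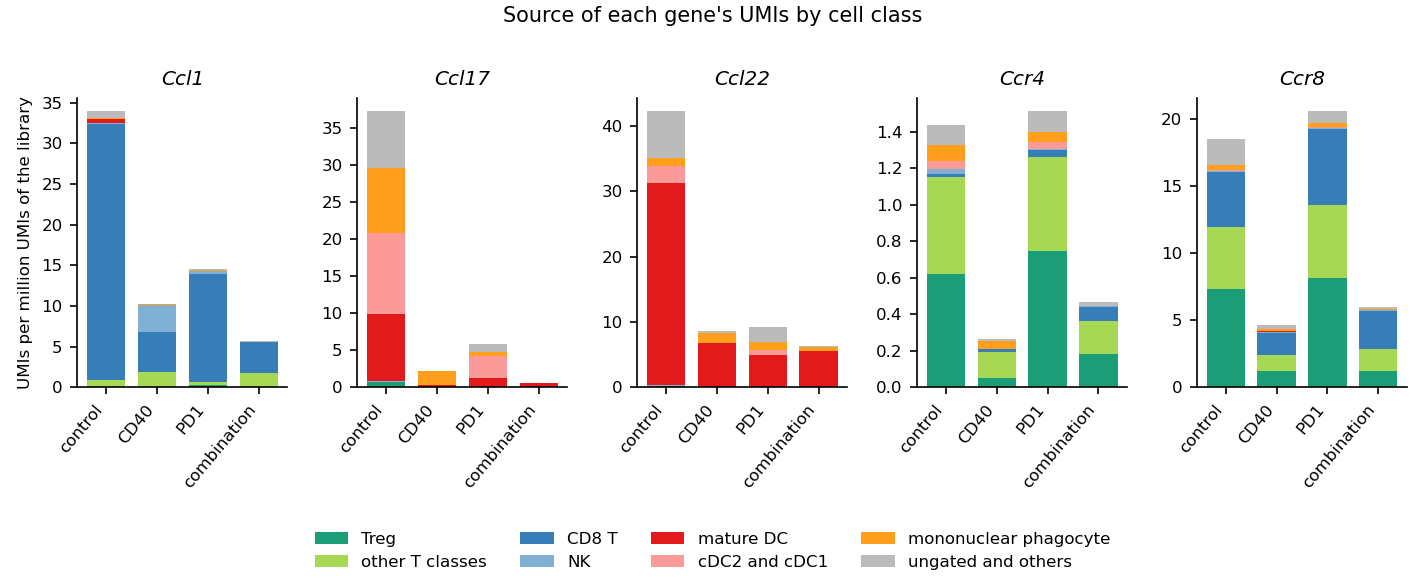
Stacked bars give the CPM of each gene in a library, coloured by the cell class they came from, with 1 library per bar and axes starting at 0. Ccl1 was mainly blue (CD8 T) in the control and PD1 libraries, Ccl22 mainly red (mature DC) in all 4, and the total of Ccl17 was 37.2 in the control and 0.663 in the combination library.

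Over whole libraries the totals of the 3 chemokines were highest in the control library. Ccl17 was at 37.2 CPM (36.1 to 38.4) in the control, 2.28 (2.05 to 2.54) under CD40, 5.84 (5.45 to 6.25) under PD1 and 0.663 (0.541 to 0.803) under both. Ccl22 was at 42.2, 8.68, 9.29 and 6.36 CPM, and Ccl1 at 33.9, 10.3, 14.6 and 5.66 CPM, in the same order. Both receptors divided the libraries otherwise: the control and PD1 libraries were high and the libraries with CD40 antibody were low. Ccr8 was at 18.5, 4.63, 20.6 and 5.97 CPM and Ccr4 at 1.44, 0.265, 1.51 and 0.465 CPM. The classes that carry these genes differed in number beside them. Treg-gated cells were 4.27% (3.83 to 4.74) of control cells, 1.15% (0.922 to 1.41) of CD40, 3.32% (2.97 to 3.69) of PD1 and 1.14% (0.935 to 1.37) of combination cells. Mature DC-gated cells were 2.31% (1.99 to 2.67), 0.322% (0.209 to 0.475), 0.733% (0.573 to 0.924) and 0.221% (0.137 to 0.338), and cDC2-gated cells numbered 272, 5, 194 and 3. Library totals therefore mix the number of cells with the level in a cell, and the levels within a class follow.

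**Figure D2:**
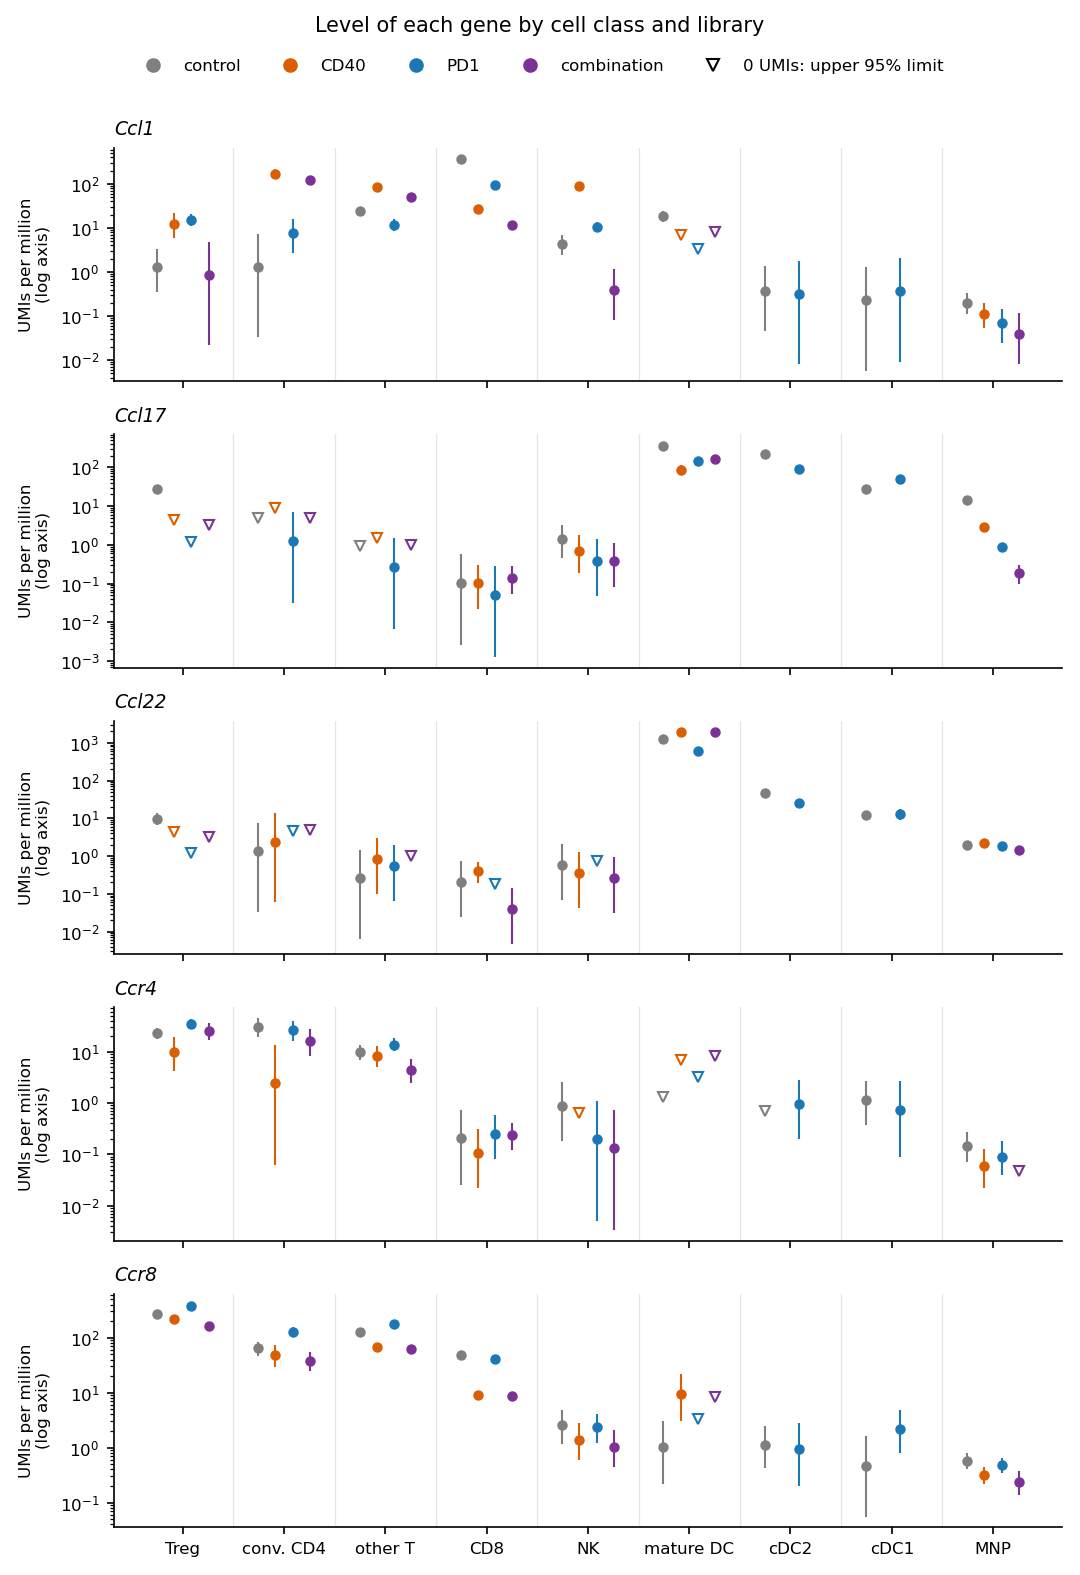
Points give the level of each gene in CPM of the class (log axis) by cell class and library, with 95% Poisson intervals for counting error, open triangles for the upper limit where a class had 0 UMIs, and classes under 20 cells left out (MNP, mononuclear phagocyte). Ccl22 in mature DC stood at 1898.2 in the combination and 610.9 in the PD1 library, and Ccl1 in CD8 T at 372.8 in the control and 11.6 in the combination library.

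Ccl22, the CCR4 ligand of mature DCs, was higher per cell in the libraries with CD40 antibody although its library total was lower. In mature DC-gated cells it was at 1239.6 CPM (1199.2 to 1281.1) in the control, 1888.5 (1773.7 to 2008.7) under CD40, 610.9 (566.2 to 658.1) under PD1 and 1898.2 (1773.3 to 2029.6) under both. The CD40 and combination levels lay together at the top, and the PD1 level was lowest. The log2 ratio was 0.61 (0.51 to 0.71) for CD40 against control and 1.64 (1.49 to 1.78) for combination against PD1. Of the genes with at least 30 UMIs in the higher library, 3.12% were at least 2-fold higher and 13.4% at least 2-fold lower in mature DC-gated cells for CD40 against control, and 4.84% and 9.19% for combination against PD1. Ccl22 passed the 2-fold mark in the latter comparison, as one of 178 genes that were higher. The median log2 ratio of all genes tested was -0.25 and -0.18 in these comparisons and -0.135 and -0.14 in Treg-gated cells. The 30-UMI rule shapes these medians and shares. Mature DC-gated cells held 534291 UMIs under CD40 and 2865393 in the control. A faint gene therefore passed the rule more easily when it was lower under CD40. The medians and shares are thus no neutral baseline for a single gene, and the size of this effect was not tested.

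Ccl22 was found in most mature DC-gated cells of every library. Cells with a UMI numbered 148 of 179 in the control (82.7%, 76.3 to 87.9), 23 of 25 in the CD40 (92.0%, 74.0 to 99.0), 52 of 71 in the PD1 (73.2%, 61.4 to 83.1) and 19 of 21 in the combination library (90.5%, 69.6 to 98.8). With each cell thinned to 5000 UMIs, the shares were 70.3%, 87.5%, 64.3% and 81.0%. The intervals of the unthinned shares overlap. The amounts lay further apart: cells with a UMI held a median of 9 Ccl22 UMIs in the control, 20 under CD40, 7.5 under PD1 and 27 under both. In CD8 T-gated cells, which should lack the gene, the share was 0.331% (control) and 0.575% (CD40), at median depths of 12925.5 and 13129 UMIs against 14380 and 20971 in the mature DC-gated cells. The markers of mononuclear phagocytes moved along with this result, at a summed 199 and 390 CPM in the control and PD1 mature DC-gated cells and 526 and 1038 CPM in the CD40 and combination ones, with all 8 markers detected in the first 3 libraries and Adgre1 at 0 in the combination library. Their part in the result was not tested. Over all mononuclear phagocyte-gated cells Ccl22 was at 1.41 to 2.26 CPM in the 4 libraries.

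Ccl17, the other CCR4 ligand, did not follow Ccl22 in the comparisons for CD40 antibody. For PD1 against control both were lower in mature DC-gated cells, with log2 ratios of -1.29 for Ccl17 and -1.02 for Ccl22. In mature DC-gated cells it was at 362.6 CPM (340.9 to 385.3) in the control, 86.1 (63.0 to 114.8) under CD40, 148.1 (126.5 to 172.3) under PD1 and 168.1 (132.5 to 210.5) under both. The control library stood above the other 3. The log2 ratio was -2.07 (-2.53 to -1.65) for CD40 against control, past the 2-fold mark, and 0.18 (-0.23 to 0.58) for combination against PD1, where the counting interval included 0. Few cells carry these values: 31 of the 46 Ccl17 UMIs of the CD40 library were in 1 cell, and without the leading cell of each library the ratio of CD40 to control was -3.41. With cells named by clusters, the ratio of combination to PD1 was 1.45. The 3 cDC2 markers moved along, at a summed 273, 109, 244 and 113 CPM in the mature DC-gated cells, with Cd209a at 0 under CD40 and Cd209a and Clec10a at 0 under both, and their part in the result was not tested. Cells with a UMI numbered 75 of 179, 4 of 25, 15 of 71 and 9 of 21.

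Nearly every Ccl17-positive mature DC-gated cell also held Ccl22. Both were found in 74 of the 75 control cells with Ccl17, and in 4 of 4, 15 of 15 and 9 of 9 in the treated libraries. The reverse did not hold: of the Ccl22-positive cells, 74 of 148 had Ccl17 in the control, 4 of 23 (17.4%) under CD40, 15 of 52 (28.8%) under PD1 and 9 of 19 (47.4%) under both. Cells with Ccl17 were deeper (median 17708 against 12314 UMIs in the control), and at 5000 UMIs a cell 91.5% of control cells with Ccl17 had Ccl22 against 62.4% of those without. Control cells with Ccl17 also had more Ccl22, 1829 against 631 CPM. In cDC2-gated cells 63 of 272 control cells had Ccl17, and Ccl22 was found in 34.9% of these and 4.31% of those without. Under PD1 the shares were 45.0% and 3.45%.

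**Figure D3:**
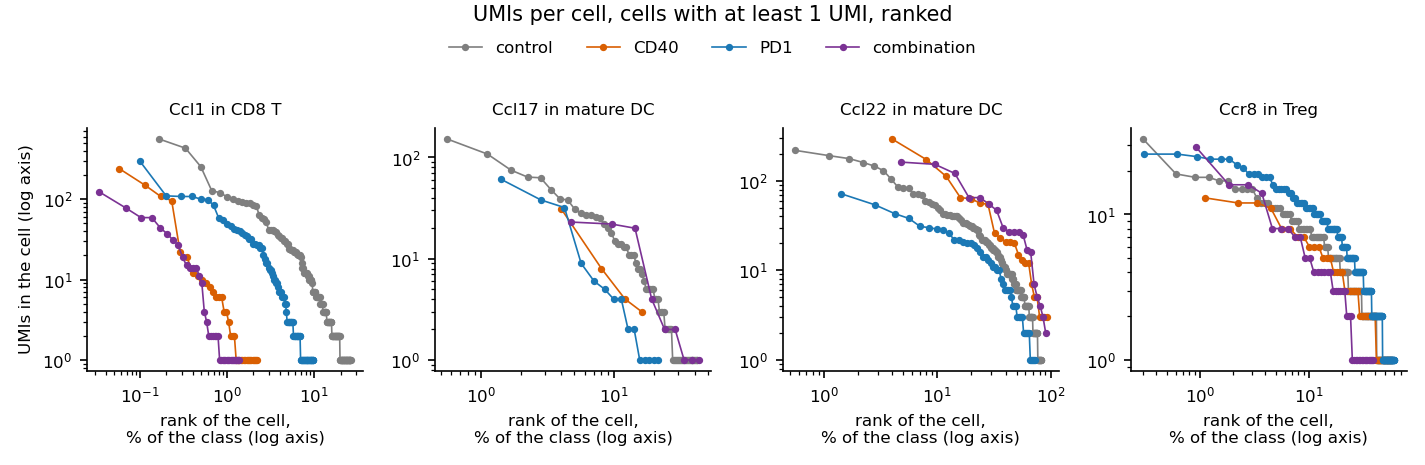
Cells with at least 1 UMI are ranked by their UMIs of the gene (vertical log axis) against their rank as a percentage of the class (horizontal log axis), 1 line per library. The Ccl1 curve of CD8 T-gated cells reached 26.2% of the class in the control library and 1.36% in the combination library, and the Ccl22 curves of the CD40 and combination libraries lay above those of the control and PD1 libraries.

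Ccl17 was also read outside mature DCs. In cDC2-gated cells it was at 216.3 CPM (203.9 to 229.2) in the control and, under PD1, at 91.2 (80.9 to 102.4), and the 5 and 3 such cells of the CD40 and combination libraries held none, which allows a level of up to 60.3 and 58.6 CPM (3 UMIs). In cDC1-gated cells, the conventional DCs marked by Xcr1, the PD1 library was higher, at 50.5 CPM (42.5 to 59.7) against 27.8 (23.1 to 33.2) in the control, with 129 of its 139 UMIs in 1 cell. In mononuclear phagocyte-gated cells Ccl17 was at 14.5 CPM in the control, 2.81 under CD40, 0.869 under PD1 and 0.183 under both. These levels came from 55 of 3688 control cells, 8 of 3888, 22 of 5369 and 6 of 3387, and the 10 leading cells held 81.4% of the control UMIs. The 55 control phagocytes with Ccl17 had a summed 211 CPM of the 7 mature DC markers against 30.5 in those without, and 11775.5 CPM of the 8 phagocyte markers against 18621.5. The part of these markers in the result was not tested. In Treg-gated cells 87 Ccl17 UMIs were counted in 2 control cells, with 58 in 1 of them, and 0 in the other libraries.

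Genes known to induce these chemokines were read in the same mature DC-gated cells. Of 11 such genes, receptors and factors of the GM-CSF, interleukin 4, TSLP and NF-kB pathways, 2 were at least 2-fold higher and 1 was lower for CD40 against control, with a median log2 ratio of 0.06. Of 10 measured for combination against PD1, 1 was higher and 0 lower, with a median of 0.05. Of all genes tested, 3.12% were higher and 13.4% lower in the first comparison (median -0.25). In the second, 4.84% were higher and 9.19% lower (median -0.18). Cd40, the antibody's target, was higher in both, at 1052 against 386 CPM (log2 ratio 1.45) and 1000 against 322 CPM (1.64). Il13ra1, a receptor chain for interleukins 4 and 13, was at 78.6 against 37.3 CPM for CD40 against control (1.07, 0.52 to 1.60). Irf4, a transcription factor of DCs and T cells, was at 5.61 against 27.6 CPM from only 3 UMIs in the CD40 library (-2.30, -4.60 to -0.70). Stat6, which carries the interleukin 4 signal, had log2 ratios of -0.19 and 0.24, and Relb, an NF-kB subunit of mature DCs, -0.30 and -0.32.

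Ccl1, the CCR8 ligand, was lower in CD8 T-gated cells of every treated library. It was at 372.8 CPM (360.8 to 385.2) in the control, 26.4 (24.5 to 28.3) under CD40, 94.2 (90.0 to 98.5) under PD1 and 11.6 (10.7 to 12.6) under both. The 4 intervals did not overlap, but they do not cover the spread between cells, and few cells held much of each count. The log2 ratios were -3.82 (-3.94 to -3.71) for CD40 against control, -3.02 (-3.16 to -2.89) for combination against PD1 and -1.99 (-2.07 to -1.90) for PD1 against control. In CD8 T-gated cells 3.06% of genes were at least 2-fold higher and 2.48% lower for CD40 against control, and 3.73% and 2.54% for combination against PD1, and Ccl1 was among the lower genes in both. The ratio of combination to CD40 was -1.18 (-1.34 to -1.03), but with a stricter gate it was 0.45, where the CD40 library held 234 Ccl1 UMIs in place of 742. The ratio of CD40 to control was -5.47 with the stricter gate and -3.15 with cells named by clusters, and that of combination to PD1 was -2.41 by clusters and -3.68 with equal weight for every cell.

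Both the number of Ccl1-positive cells and their share of the class were lower. Cells with a UMI numbered 158 of 604 in the control (26.2%, 22.7 to 29.9), 38 of 1739 in the CD40 (2.19%, 1.55 to 2.99), 98 of 1007 in the PD1 (9.73%, 7.97 to 11.7) and 40 of 2937 in the combination library (1.36%, 0.975 to 1.85). At 5000 UMIs a cell the shares were 20.4%, 1.38%, 5.96% and 0.821%. In mononuclear phagocyte-gated cells, which should lack the gene, 0.380%, 0.257%, 0.0745% and 0.0886% of cells had a Ccl1 UMI, at median depths of 14352.5, 20060.5, 13355 and 18611 UMIs against 12925.5, 13129, 16492 and 13489 in CD8 T-gated cells. Ccl1 was concentrated in few cells: the 10 leading cells held 54.7% of the control, 91.0% of the CD40, 56.7% of the PD1 and 83.4% of the combination UMIs, and the leading control cell held 560. In CD8 T-gated cells the 8 phagocyte markers summed to 558, 970, 686 and 1095 CPM and the 7 mature DC markers to 79.0, 20.5, 37.7 and 29.0 CPM, with Apol7c at 0 in the first 3 libraries, and their part in the Ccl1 result was not tested. Outside CD8 T-gated cells Ccl1 was not lower in every class, and single cells often decided the level. In other T cells it was higher for CD40 against control, with 205 against 96 UMIs (log2 ratio 1.79). The same class held 186 against 45 UMIs for combination against PD1 (2.10). Conventional CD4 T-gated cells held 71 against 1 UMIs (7.02, 4.495 to 12.343) and 94 against 6 (4.07, 2.892 to 5.55) in these comparisons. The first of these ratios rests on 1 control UMI. In the CD40 library 505 of the 508 Ccl1 UMIs of NK-gated cells were in 1 cell, and these 508 UMIs were 32.7% of the library's Ccl1.

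CD8 T-gated cells with Ccl1 were set against those without for other genes. Of 13 measured genes known from activated T cells, 9 were higher by log2 ratio in all 4 libraries and 1 was lower in all 4. Of all 12690 genes with a ratio in every library, 20.1% were higher and 17.0% lower in all 4. A count of 0 was set to 3 UMIs in these ratios. A gene with no UMI in the few Ccl1-positive cells can therefore be counted as higher, so these shares are a rough background. Csf2 and Nr4a1, which were among the 9, were near equal in 1 library each (0.04 and 0.06). Xcl1, a chemokine that attracts cDC1, was at 1269 against 161 CPM in the control and 2087 against 73.0 in the combination library. Crtam, an adhesion receptor of activated T cells, had log2 ratios of 1.79 to 2.21 across the libraries, Egr2, a factor induced by receptor signals, 1.04 to 2.25, and Ifng, the interferon gamma gene, 1.26 to 2.07. Tox, a factor of chronically stimulated T cells, was the gene lower in all 4 libraries (-0.51 to -0.13), and Pdcd1, which encodes PD1, ranged from -0.02 to 0.31. Ccl1-positive cells were deeper, with medians of 20885 against 10451.5 UMIs in the control library. Between groups, over all CD8 T-gated cells, 4 of 13 genes of this list were at least 2-fold lower and 0 higher for CD40 against control. For combination against PD1, 2 of 13 were lower and 0 higher. Of all genes tested, 2.48% were lower and 3.06% higher in the first comparison, and 2.54% and 3.73% in the second. Xcl1 was at 80.2 against 589 CPM (-2.88) and 123 against 252 (-1.04), and Csf2, which encodes GM-CSF, at 14.9 against 39.9 (-1.42) and 6.10 against 12.7 (-1.06).

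Ccr8, the CCL1 receptor, was higher in Treg-gated cells than in any other class of at least 20 cells in each library. It was at 268.2 CPM (250.3 to 287.0) in the control, 221.3 (190.4 to 255.8) under CD40, 381.4 (359.7 to 404.0) under PD1 and 162.8 (140.3 to 187.9) under both. The PD1 library stood highest and the combination library lowest. The log2 ratio was -0.28 (-0.52 to -0.04) for CD40 against control and -1.23 (-1.46 to -1.004) for combination against PD1. In Treg-gated cells 1.3% of genes were at least 2-fold higher and 6.45% lower for CD40 against control, and 0.912% and 6.49% for combination against PD1. Ccr8 was past the 2-fold mark in the latter comparison and not in the former. The ratio of CD40 to control was -0.04 with a looser Treg gate and -0.59 with cells named by clusters.

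**Figure D4:**
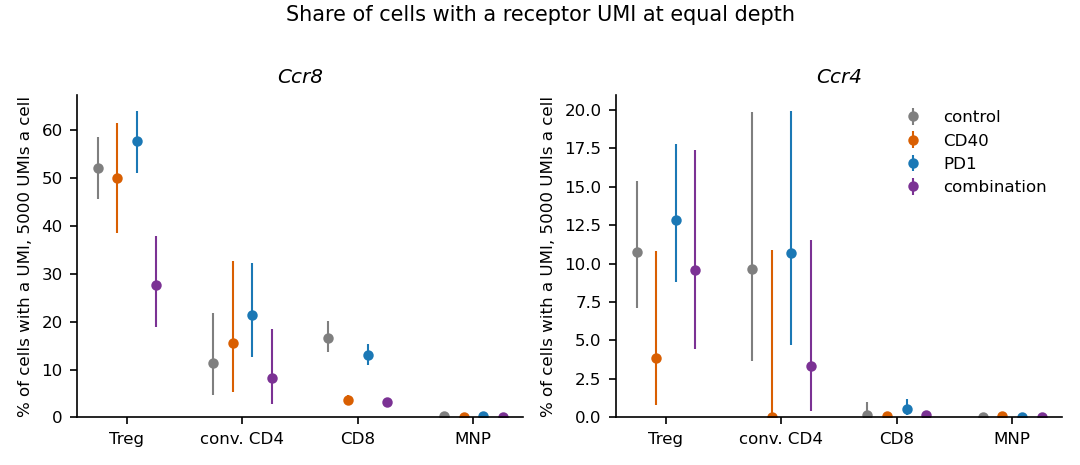
Points give the percentage of cells with a UMI of Ccr8 (left) or Ccr4 (right) after each cell was thinned to 5000 UMIs, with exact 95% binomial intervals, by cell class and library (MNP, mononuclear phagocyte). The Ccr8 share of Treg-gated cells was 27.7% in the combination library, 52.1% in the control and 57.7% in the PD1 library.

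The share of Treg-gated cells with Ccr8 was lowest in the combination library. Cells with a UMI numbered 192 of 330 (58.2%, 52.7 to 63.6), 49 of 89 (55.1%, 44.1 to 65.6), 195 of 321 (60.7%, 55.2 to 66.1) and 42 of 108 (38.9%, 29.7 to 48.7). The interval of the combination library overlaps that of the CD40 library and lies below those of the control and PD1 libraries. At 5000 UMIs a cell the shares were 52.1% in the control, 39 of 78 cells under CD40, 57.7% under PD1 and 27.7% under both. In mononuclear phagocyte-gated cells 0.732%, 0.129%, 0.708% and 0.177% had a Ccr8 UMI, at median depths of 14352.5, 20060.5, 13355 and 18611 against 6908.5, 7803, 6926 and 8427.5 in Treg-gated cells. The phagocyte markers summed to 226 to 299 CPM in the Treg-gated cells of the 4 libraries. Neutrophil markers summed to 114 CPM in the combination library, with 5 of 6 detected and Csf3r at 0, and to 2.24 to 6.05 CPM in the other 3. They were found in 16 of the 108 cells, with 64 of 131 UMIs in 1 cell, without which Ccr8 was at 166.6 CPM. The part of the other 15 cells in the result was not tested.

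CD8 T-gated cells, which by the gate hold no Foxp3 UMI, also carried Ccr8, and there the libraries split by CD40 antibody. The level was 48.0 CPM (43.8 to 52.6) in the control, 8.99 (7.92 to 10.2) under CD40, 40.1 (37.4 to 43.0) under PD1 and 8.79 (7.99 to 9.64) under both. The log2 ratios were -2.42 (-2.64 to -2.19) for CD40 against control and -2.19 (-2.36 to -2.02) for combination against PD1, so Ccr8 was among the at least 2-fold lower genes in both. The share of cells with a UMI was 33.1%, 8.40%, 29.99% and 7.93%, and 16.7%, 3.72%, 13.1% and 3.18% at 5000 UMIs a cell. Cd4, a marker of the other T lineage, was at 0.233 CPM in the 200 control cells with Ccr8 and 0.739 in the 404 without. With and without Ccr8 it was at 0.647 and 1.20 CPM under CD40 and 1.54 and 1.87 under both. Under PD1 it went the other way, at 2.845 and 2.614 CPM. Ligand and receptor occurred together: 58.9% of control CD8 T-gated cells with Ccl1 had Ccr8 against 24.0% of those without, and 31.8% against 12.8% at 5000 UMIs a cell. Under CD40, under PD1 and under both the shares were 31.6% against 7.88%, 59.2% against 26.8%, and 42.5% against 7.46%. At 5000 UMIs a cell they were 8.70% (2 of 23 cells) against 3.65%, 24.6% against 12.3%, and 21.7% (5 of 23) against 3.02%.

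Ccr4, the CCL17 and CCL22 receptor, was sparse. In Treg-gated cells it was at 22.7 CPM (17.7 to 28.7) in the control, 9.67 (4.18 to 19.1) under CD40, 35.0 (28.6 to 42.3) under PD1 and 25.2 (16.9 to 36.3) under both. The CD40 value rests on 8 UMIs in 3 cells. The log2 ratio was -1.23 (-2.50 to -0.18) for CD40 against control and -0.47 (-1.12 to 0.13) for combination against PD1, and the first is past the 2-fold mark with a wide interval. Cells with a UMI numbered 51 of 330, 3 of 89, 54 of 321 and 17 of 108. In conventional CD4 T-gated cells Ccr4 was at 30.4 CPM (19.3 to 45.7) in the control, 2.42 (0.0612 to 13.5) under CD40, 26.3 (16.3 to 40.2) under PD1 and 16.1 (8.31 to 28.1) under both. These are levels whose intervals overlap those of the Treg-gated cells. CD8 T-gated cells had 0.107 to 0.25 CPM in the 4 libraries.

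The receptors were found together in few Treg-gated cells, and Ccr4 counts are low. Ccr8 was found in 49.0% of control cells with Ccr4 and 59.9% of those without, in 0 of 3 against 57.0% in the CD40 library, in 46.3% against 63.7% in the PD1 and in 23.5% against 41.8% in the combination library. Treg-gated cells with Ccr8 had less Ccr4 than those without in every library, at 15 against 39.3, 0 against 20.4, 18.1 against 76.5 and 10.1 against 36.8 CPM. Of 15 genes known from tissue Tregs, 6 were higher and 2 lower in Ccr8-positive cells in all 4 libraries, against 11.9% higher and 13.0% lower of all 8724 genes with a ratio in every library. These shares are a rough background, because a count of 0 was set to 3 UMIs and can turn the sign of a faint gene. Ccr8-positive cells were deeper, with medians of 8131 against 5786.5 UMIs in the control and 8329 against 5288.5 under PD1. The higher genes were the costimulatory receptors Tnfrsf4 (log2 ratio 0.61 to 1.21), Tnfrsf9 (0.28 to 1.36) and Tnfrsf18 (0.09 to 0.44), the inhibitory receptor Ctla4 (0.21 to 0.87), the factor Batf (0.09 to 0.81) and the cytokine Il10 (0.36 to 4.35). The lower ones were Il1rl1, the interleukin 33 receptor (-2.04 to -0.56), and Nt5e, the CD73 enzyme (-1.56 to -0.05). Foxp3 was lower in 3 of the 4 libraries.

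Other homing genes were read in the same Treg-gated cells. Of 7 other homing receptors and adhesion genes measured, 0 were at least 2-fold higher and 1 was lower for CD40 against control, and of 9 measured 0 were higher and 2 lower for combination against PD1, beside the 6.45% and 6.49% of all genes that were lower. Itgae, the CD103 integrin of tissue T cells, was lower in both, at 53.2 against 120.0 CPM (-1.17) and 45.3 against 94.0 CPM (-1.05), and Ccr7, the lymph node homing receptor, was at 16.5 against 37.6 CPM (-1.19) in the latter. The chemokine receptors Ccr2 (0.40 and 0.45) and Cxcr3 (0.33 and 0.46) had log2 ratios above 0 and under 1. In the tissue Treg list 2 of 15 genes were higher and 2 lower for CD40 against control, and 0 higher and 1 lower for combination against PD1. Of all genes tested, 1.3% were higher and 6.45% lower in the first comparison, and 0.912% and 6.49% in the second. Nt5e was lower in both (-2.27 and -1.81), while Il10 was at 171 against 80.3 CPM (1.09) and 111.4 against 110.9 CPM (0.01).

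**Figure D5:**
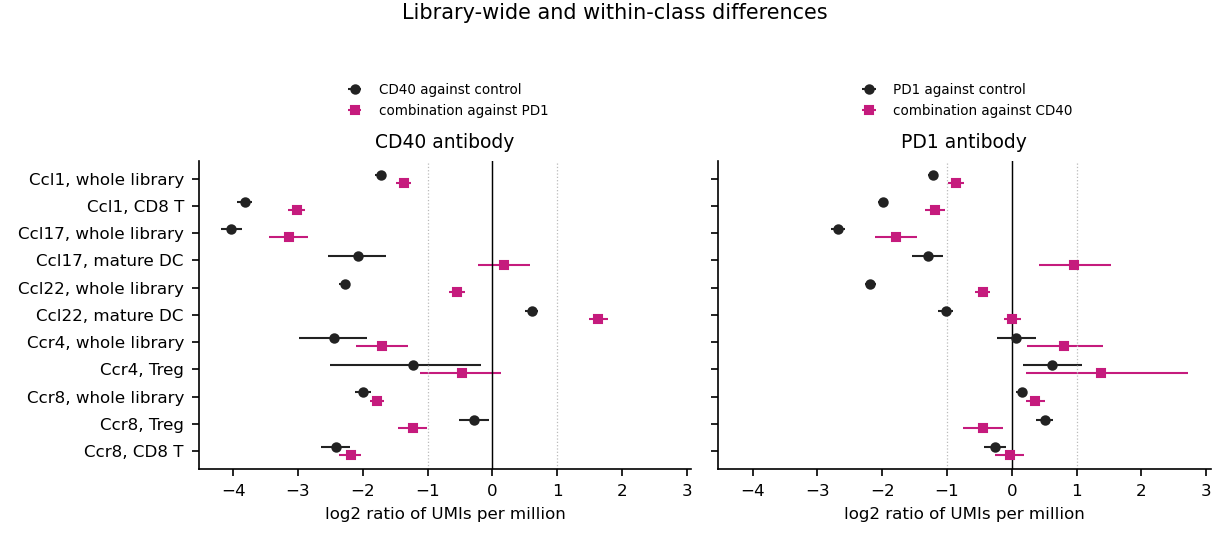
Points give log2 ratios of CPM with 95% counting intervals, for whole libraries and for the class named, by antibody (left CD40, right PD1), with dotted lines at a 2-fold difference. For CD40 against control Ccl22 was at -2.28 over the whole library and 0.61 in mature DC, while Ccl1 was at -1.72 and -3.82 in CD8 T.

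For PD1 against control, the log2 ratio in mature DC-gated cells was -1.02 (-1.14 to -0.90) for Ccl22 and -1.29 (-1.54 to -1.06) for Ccl17, and in Treg-gated cells it was 0.51 (0.38 to 0.64) for Ccr8 and 0.62 (0.18 to 1.08) for Ccr4. In other classes the same comparison gave -0.26 (-0.43 to -0.09) for Ccr8 in CD8 T-gated cells, -0.21 (-1.14 to 0.71) for Ccr4 in conventional CD4 T-gated cells and 0.86 (0.50 to 1.23) for Ccl17 in cDC1-gated cells. In the mature DC-gated cells neutrophil markers summed to 269 CPM in the PD1 library, with 5 of 6 detected and G0s2 at 0, and to 2.79 to 13.3 CPM in the others. Of the 305 marker UMIs of the PD1 library, 170 were in 1 of 6 cells that held any. Without that cell Ccl22 was at 618 and Ccl17 at 150.5 CPM there, close to the 611 and 148 with it. For combination against CD40 the same ratios were 0.01 (-0.13 to 0.14), 0.97 (0.42 to 1.53), -0.44 (-0.75 to -0.14) and 1.38 (0.22 to 2.72). Only Ccr4 kept its sign with both intervals away from 0 among these 4. The Ccl17 ratios depended on naming and on single cells: PD1 against control was -2.31 with cells named by clusters, and combination against CD40 was 2.02 without the leading cells.

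Other chemokine ligands, decoys and a protease were read over whole libraries. Ccl8, which in mouse is a further CCR8 ligand, was at 508, 456, 505 and 348 CPM, with 95.7% to 98.3% of its UMIs in mononuclear phagocyte-gated cells. Within these cells it was at 826, 670, 792 and 683 CPM. Ccl24, a CCR3 ligand of macrophages, was at 61.5, 42.6, 24.4 and 17.3 CPM. Dpp4, a protease that trims chemokines, was at 21.3 to 35.4 CPM, Ackr4 at 0.271 to 0.314 CPM and Ackr2, a decoy that takes up CCL17 and CCL22, at 0.0212 to 0.0871 CPM. Ccl20 and Ccl28 had at most 10 UMIs in any library.

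Genes with the profile most like each gene were ranked by Pearson correlation of log2(CPM + 1) over 45 profiles of 13 classes in the 4 libraries, among 14216 genes; profiles of 1 library share its depth, so no p is given. The first 3 were Ptprk (0.85), Gm43042 (0.82) and Ifng (0.81) for Ccl1, Arhgef40 (0.92), P2rx5 (0.90) and Adam23 (0.89) for Ccl17, and Gm46212 (0.92), Col27a1 (0.91) and Il12b (0.91), the interleukin 12 subunit gene of DCs, for Ccl22. They were A630023P12Rik (0.92), Ccn4 (0.91) and Ncmap (0.90) for Ccr4, and Penk (0.95), which encodes proenkephalin, Trav10 (0.92) and Sdf4 (0.92) for Ccr8. Among the 5 genes themselves Ccl17 with Ccl22 gave 0.86, Ccr4 with Ccr8 0.86 and Ccl1 with Ccr8 0.60.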

How the data were processed

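Live CD45+ cells of 4 tumour pools were measured by 10x droplet sequencing from the 5′ end. Per the file headers, the matrices hold raw counts of UMIs, as the authors deposited them. Cell Ranger 7.0.0 and GRCm38 are named by the headers and also by the submitters' processing notes. The sources used here give no annotation release, cell-calling rule or intron setting.

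Kept cells had 300 genes or more and no more than 10% mitochondrial UMIs, and 111 control, 149 CD40, 257 PD1 and 239 combination cells with a Scrublet score over 0.25 were left out as doublets. A cell joined a class if that class's marker list led any other list by a factor of 2, each in units of its own median. Treg-gated cells had T markers, at least 2 Foxp3 UMIs and no Cd8a or Cd8b1 UMI, and CD8 T-gated cells at least 3 Cd8a or Cd8b1 UMIs and no Foxp3 UMI. UMIs were summed per class and library and given as CPM (UMIs per 1000000) with exact Poisson intervals, shares with exact Clopper-Pearson intervals and the interval of a log2 ratio was the exact conditional binomial one. A count of 0 was set to 3 UMIs in a ratio. Past the 2-fold mark means at least 2-fold with at least 30 UMIs in the higher library. Faint genes pass this rule more easily when lower in the library with fewer UMIs in the class. This skews the shares and medians of all genes tested. For equal depth each cell was thinned to 5000 UMIs, and shallower cells were left out (88, 11, 87 and 14 Treg-gated and 65, 72, 51 and 135 CD8 T-gated cells). The ratio step was tested on simulated data. Alternatives were Leiden cluster names, a stricter gate (a factor of 4 and doubled minima for T subsets), doublets kept, no cell filter, a depth minimum, equal weight per cell, shared barcodes left out and, chosen after seeing the data, the leading cell left out, the cell richest in neutrophil markers left out and a looser Treg gate (at least 1 Foxp3 and at most 1 Cd8a or Cd8b1 UMI). The 5 genes, the gene lists and the alternatives were chosen with earlier results of these data known. The named genes are the 5 genes, the fixed lists and the genes most alike in profile. Coordinates came from GENCODE vM21 by Ensembl ID, and all 5 genes matched the RefSeq promoter table. Software was Python 3.11.15, NumPy 2.4.6, SciPy 1.17.1, pandas 2.3.3, Scanpy 1.11.5, leidenalg 0.10.2 and matplotlib 3.10.9.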

Additional observations from a re-analysis of the deposited data

Results flagged for a closer look

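A few ratios had opposite signs with and without the other antibody, each with a counting interval that left out 0. In Treg-gated cells the log2 ratio of Ccr8 was 0.51 for PD1 against control and -0.44 for combination against CD40. In mature DC-gated cells that of Ccl17 was -1.29 for PD1 against control and 0.97 for combination against CD40. In NK-gated cells Ccl1 was at 4.37 for CD40 against control and -4.76 for combination against PD1, and at 1.31 for PD1 against control and -7.83 for combination against CD40. The NK values rest on 1 cell with 505 of 508 UMIs in the CD40 library and 1 cell with all 54 UMIs in the PD1 library, while the combination library held 3 UMIs. With 1 library per group the difference between the paired ratios was not tested in any of these.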

How the results depend on the processing

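Every ratio within the main class of a gene was recomputed. Keeping predicted doublets, applying no filter on cells and using only cells with at least 5000 UMIs left all 20 ratios inside the counting interval of the reported value. Of 20 ratios, cluster names moved 11 outside it, equal weight per cell 8, the stricter gate 3, leaving out shared barcodes 4 and leaving out the leading cell 7, and the looser Treg gate moved 1 of 8. Signs were kept in 20 of 20 ratios by cluster names, equal weight and without the leading cell, in 19 of 20 without shared barcodes and in 18 of 20 with the stricter gate. The cause of these moves was not tested.

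In CD8 T-gated cells the stricter gate gave 0.45 for Ccl1, combination against CD40, a reversed sign, and -5.47 for CD40 against control. Cluster names gave -3.15 for CD40 against control, -2.41 for combination against PD1 and -1.82 for PD1 against control. Equal weight gave -4.09, -3.68 and -1.82 for these and -1.41 for combination against CD40. Without the leading cells, CD40 against control was -4.15 and combination against CD40 -0.96.

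For Ccl17 in mature DC-gated cells, CD40 against control was -3.41 without the leading cells. Combination against PD1 was 1.45 by clusters, 0.80 without shared barcodes and 0.95 with equal weight. PD1 against control was -2.31 by clusters, -1.04 with the stricter gate, -1.86 without shared barcodes and -1.72 without the leading cells. Combination against CD40 was 1.61 with equal weight and 2.02 without the leading cells.

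For Ccl22 in mature DC-gated cells, CD40 against control was 0.46 by clusters, 0.82 without shared barcodes and 0.30 without the leading cells. Combination against PD1 was 1.89 by clusters. PD1 against control was -1.23 by clusters and -0.89 with equal weight. Combination against CD40 was 0.19 by clusters, -0.27 without shared barcodes, 0.17 with equal weight and 0.23 without the leading cells.

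For Ccr8 in Treg-gated cells, CD40 against control was -0.59 by clusters and -0.038 with the looser gate, and combination against CD40 was -0.10 by clusters. Over whole libraries, 17 of 20 ratios stayed inside the interval with all deposited barcodes. No paired analysis was possible because each group has 1 library. Depth limits Ccr4 most, with 8 to 106 UMIs in Treg-gated cells of a library.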
